A study of Mus musculus with 10 samples.

Results

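Matrix metalloproteinases (MMPs) and their tissue inhibitors (TIMPs) were followed in the aortic arch of atherosclerotic mice with and without MyD88. The members were all probes annotated to Mmp2, Mmp3, Mmp9, Mmp12, Mmp13, Mmp14, Timp1, Timp2 or Timp3. These 9 genes had 11 of the 13872 probes on the array. Of the 11 probes, 9 had a value on at least 1 array, and 8 probes of 7 genes could be tested, with both arrays filled in 3 or more mouse pairs. RNA from double-null mice (ApoE-/-,MyD88-/-) was hybridised against RNA from apoE-null mice (ApoE-/-), so every mouse of the study lacked apolipoprotein E. The labels give both as null genotypes and name no promoter or Cre. A high fat diet of 8 weeks is stated for 8 of 10 arrays, and the mice on the other arrays also occur on arrays with that statement. The sources used here give no age for the mice. Each of 5 mouse pairs, of 1 mouse per genotype, was hybridised on 2 arrays with the dyes exchanged. Both mice were female in pair 1 and male in pairs 2, 3 and 4. In pair 5 the double-null mouse was male and the apoE-null mouse female.

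MMPs are secreted or membrane-bound zinc proteases that cut collagen, elastin and other proteins of the extracellular matrix. Most are made as inactive proenzymes and are opened by other proteases, and TIMPs block the active site of the opened enzymes. In atherosclerotic plaques MMPs come largely from macrophages and smooth muscle cells, and matrix breakdown by them is studied as a cause of plaque rupture and aneurysm. MyD88 is the adaptor of most Toll-like receptors and of the interleukin-1 receptor, and these signals induce several MMP genes, in part through the transcription factor AP-1.

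Mmp3, Mmp12 and Mmp13 lie in a run of 10 MMP genes on chromosome 9. Their promoters are shown because AP-1 is a known route from inflammatory signals to these genes. RefSeq entries of build GRCm38.p6, which reach from 250 bases before to 50 bases after a start site, were found for 7 of the 9 members. Mmp2 and Mmp9 had none. The AP-1 motif TGAGTCA was searched on both strands, so that TGACTCA counts as a match, and it overlapped no other motif searched. It occurred in entries of 3 members, Mmp3, Mmp12 and Mmp13, and in 5.2% of all 32851 promoter entries. Of the 2 Mmp12 entries, the one at the second start site held it. The match began 46 bases before the start site in Mmp3, 44 in Mmp12 and 35 in Mmp13. The entries of Mmp14, Timp1, Timp2 and Timp3 held no such match, and each of these 4 held the GC box GGGCGG or its reverse complement CCGCCC, as did 35.7% of all entries. The TATA box TATAAA, or TTTATA on the other strand, was held by the same 3 entries as the AP-1 motif and by 13.6% of all entries. These TATAAA matches began 7 bases before the start site in Mmp3, 16 before it in Mmp13 and 5 after it in Mmp12. All distances are counted from annotated start sites. Whether these sites or the matched motifs are used in the aorta was not tested. The 120 bases before the start site are printed 5′ to 3′ for the 3 genes with the AP-1 motif, which is in capitals, and for Timp1 without it. They lie at chr9:7445702-7445821 for Mmp3, chr9:7347254-7347373 for the second start of Mmp12, chr9:7272394-7272513 for Mmp13 and chrX:20870046-20870165 for Timp1, all on the plus strand.
Mmp3: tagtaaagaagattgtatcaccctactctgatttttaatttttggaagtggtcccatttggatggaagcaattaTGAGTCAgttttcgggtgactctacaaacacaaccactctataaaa
Mmp12: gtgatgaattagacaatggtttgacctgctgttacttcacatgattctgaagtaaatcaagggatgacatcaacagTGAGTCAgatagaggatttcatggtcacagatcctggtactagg
Mmp13: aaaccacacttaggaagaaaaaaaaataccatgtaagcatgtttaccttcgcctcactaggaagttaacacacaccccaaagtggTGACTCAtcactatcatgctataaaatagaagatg
Timp1: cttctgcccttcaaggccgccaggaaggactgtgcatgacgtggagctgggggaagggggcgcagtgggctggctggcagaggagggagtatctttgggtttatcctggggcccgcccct

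Values are log2 ratios of double-null over apoE-null, so a negative value means less transcript in the double-null mouse, and the 2 arrays of a pair were averaged to a pair value. A pair is 1 replicate. Each array gave between 4581 and 7057 values, and 4866 probes were tested against 0 with limma. At an adjusted p under 0.05, 0.781% of these probes were called in either direction. Myd88 itself, the targeted gene, read -0.90 ± 0.22 (SD, n = 5 pairs, limma adjusted p = 0.0248). That is 53.7% of the apoE-null level, although the labels give a null genotype. Why the probe did not read lower was not tested. Partner arrays of a pair had Pearson correlations of 0.56, 0.31, 0.04, 0.19 and 0.46 across probes in pairs 1 to 5, so pair 3 was the least repeatable. The 2 arrays of pair 1 give the same 2 mouse numbers with the genotypes exchanged, and the genotype labels were used. Smooth muscle markers, which define the vessel wall, had values for 7 of 8 probes, and macrophage markers for 14 of 14. In RNA from whole tissue, fewer cells of a type and less RNA per cell cannot be told apart.

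No MMP or TIMP probe passed the test between genotypes. Of the 8 tested probes, 7 had a mean below 0, against 58.7% of all tested probes, and the median of the 8 means was -0.34, against -0.04 for all. Without pair 1 that median was -0.09. The limma fit called 0 of the 8 at an adjusted p under 0.05. At an unadjusted p under 0.05 it gave 2, Mmp3 and Mmp14, where 10.0% of all tested probes did. Both were below 0, as were 5.9% of all tested probes at that p. The smallest adjusted p of a member was 0.415. The order of the means from lowest to highest was Mmp3, Timp1 by its probe 13427, Mmp12, Mmp14, Timp1 by its probe 8431, Timp3, Mmp9 and Mmp2. Neighbours in this order differed by less than their spread over pairs. Mmp3 had no value in pair 2, so its mean covers other pairs than the rest. Without pair 2, Timp1 probe 13427, at -0.72, lay below Mmp3, at -0.52.

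**Figure D1:**
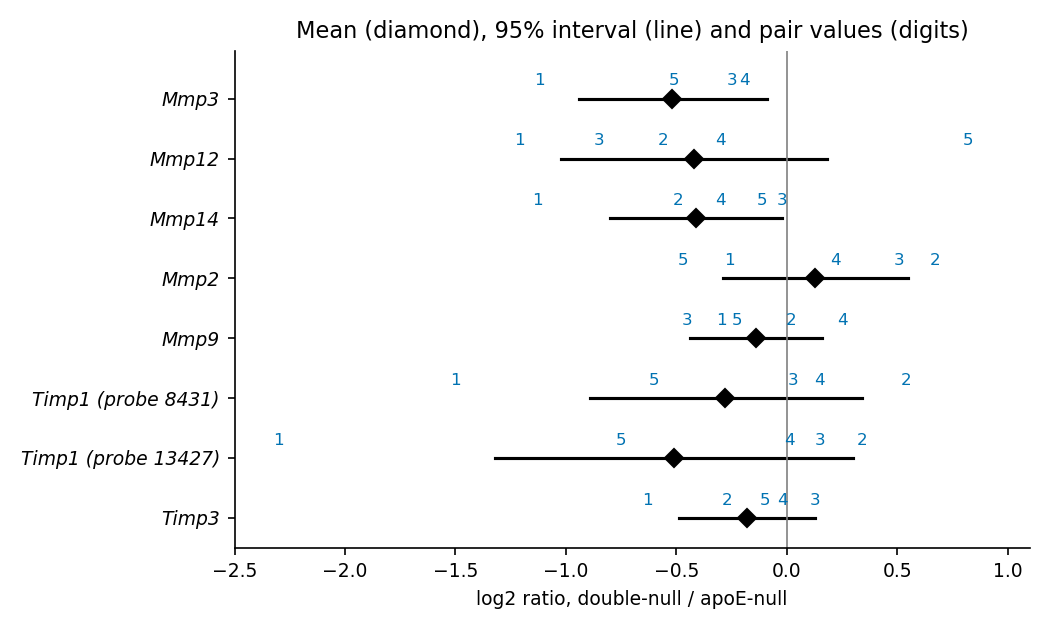
Mean log2 ratio of double-null over apoE-null (diamond), its 95% interval from the limma fit (line) and the value of each mouse pair (digit 1 to 5) for the 8 tested probes. The intervals of Mmp3 and Mmp14 lie below 0 and the others include it, while pair 1 is the lowest pair for every probe except Mmp2 and Mmp9.

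Mmp3, or stromelysin 1, cuts proteoglycans and laminin and opens other pro-MMPs. Its ratio was below 0 in all 4 pairs that had a value, and 8.32% of all tested probes were below 0 in every pair measured. That share was 6.56% among probes with 5 pair values, so it was higher among probes with fewer, as Mmp3 had. On the arrays with double-null RNA in channel 1 it read -1.07, -0.35, -0.81, 0.02 and -0.29 in pairs 1 to 5. On those with it in channel 2 it read -1.17, 0.32, -0.41 and -0.72 in pairs 1, 3, 4 and 5, with a blank in pair 2. The female pair was lowest and pairs 3 and 4 lay closest to 0, with partner arrays of opposite sign in both. The mean was -0.52 ± 0.42 (SD, n = 4 pairs, 95% interval -0.94 to -0.09), or 69.9% of the apoE-null level. Without pair 1 the mean was -0.32 (limma adjusted p = 0.766), and in the male pairs alone it was -0.22. Limma gave an unadjusted p of 0.0236 and an adjusted p of 0.415. The exact sign-flip permutation test, two-sided, gave p = 0.125, the smallest that 4 pairs allow.

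Mmp12, the macrophage elastase, which degrades elastin, was below 0 in 4 of 5 pairs and clearly above 0 in pair 5. With double-null RNA in channel 1 the arrays read -0.78, -0.32, -0.79, -0.04 and 0.84 in pairs 1 to 5. With it in channel 2 they read -1.63, -0.80, -0.92, -0.55 and 0.80. Both arrays of every pair had the same sign, so the reading of pair 5 was seen in both dye orientations. The mean was -0.42 ± 0.77 (SD, n = 5 pairs, 95% interval -1.02 to 0.18, limma adjusted p = 0.596). Its SD was larger than that of 94.4% of tested probes. Without pair 5 the mean was -0.73 (limma adjusted p = 0.137), and without pair 1 it was -0.22 (limma adjusted p = 0.908). In pair 5, 97.6% of the tested probes lay below Mmp12, and in pair 1 only 2.49% did. A pattern of 4 values below 0 in pairs 1 to 4 and 1 above 0 in pair 5 was found in 6.7% of probes with 5 pair values.

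Mmp13, the main collagenase of rodents, had no value on any array, so its AP-1 promoter could not be set beside a measurement. In the chromosome 9 run, 9 of 10 MMP genes had a probe, 3 had a value on any array and 2, Mmp3 and Mmp12, were tested. Mmp8, a neutrophil collagenase, had values on 5 arrays. The sources used here do not say why cells were left blank.

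Mmp14, or MT1-MMP, is anchored in the cell membrane, cuts fibrillar collagen and opens pro-Mmp2. It was the only member below 0 in 5 of 5 pairs, a pattern that 6.56% of probes with 5 pair values shared. With double-null RNA in channel 1 it read -0.72, -0.21, 0.35, -0.44 and 0.10 in pairs 1 to 5. With it in channel 2 it read -1.54, -0.77, -0.40, -0.17 and -0.32. Pair values were -1.13 in pair 1, -0.49 in pair 2, -0.02 in pair 3, -0.30 in pair 4 and -0.11 in pair 5, and partner arrays of pairs 3 and 5 had opposite signs. The mean was -0.41 ± 0.44 (SD, n = 5 pairs, 95% interval -0.80 to -0.02), with an unadjusted p of 0.0411 and a limma adjusted p of 0.474. The exact sign-flip permutation test, two-sided, gave p = 0.062, the smallest that 5 pairs allow. Without pair 1 the mean was -0.23.

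Mmp2, or gelatinase A, which degrades denatured collagen and basement membrane collagen, was the only member with a mean above 0. With double-null RNA in channel 1 it read -0.43, 0.40, 0.24, 0.30 and -0.50 in pairs 1 to 5. With it in channel 2 it read -0.10, 0.95, 0.77, 0.15 and -0.45. All 6 arrays of the male pairs were above 0 and all 4 arrays of pairs 1 and 5 were below. The mean was 0.13 ± 0.49 (SD, n = 5 pairs, 95% interval -0.29 to 0.55, limma adjusted p = 0.784), and the interval reaches to 1.47-fold higher in the double-null mice.

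Mmp9, or gelatinase B, an enzyme of neutrophils and macrophages, had 2 probes. Probe 7262 had no value on any array and probe 9975 had values on all 10. Its pair values were -0.26, 0.02, -0.45, 0.25 and -0.26 in pairs 1 to 5, with 6 of 10 arrays below 0 and partner arrays of opposite sign in pairs 1 and 2. The mean was -0.14 ± 0.28 (SD, n = 5 pairs, 95% interval -0.44 to 0.16, limma adjusted p = 0.704). It was -0.06 without pair 3 and -0.24 without pair 4.

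**Figure D2:**
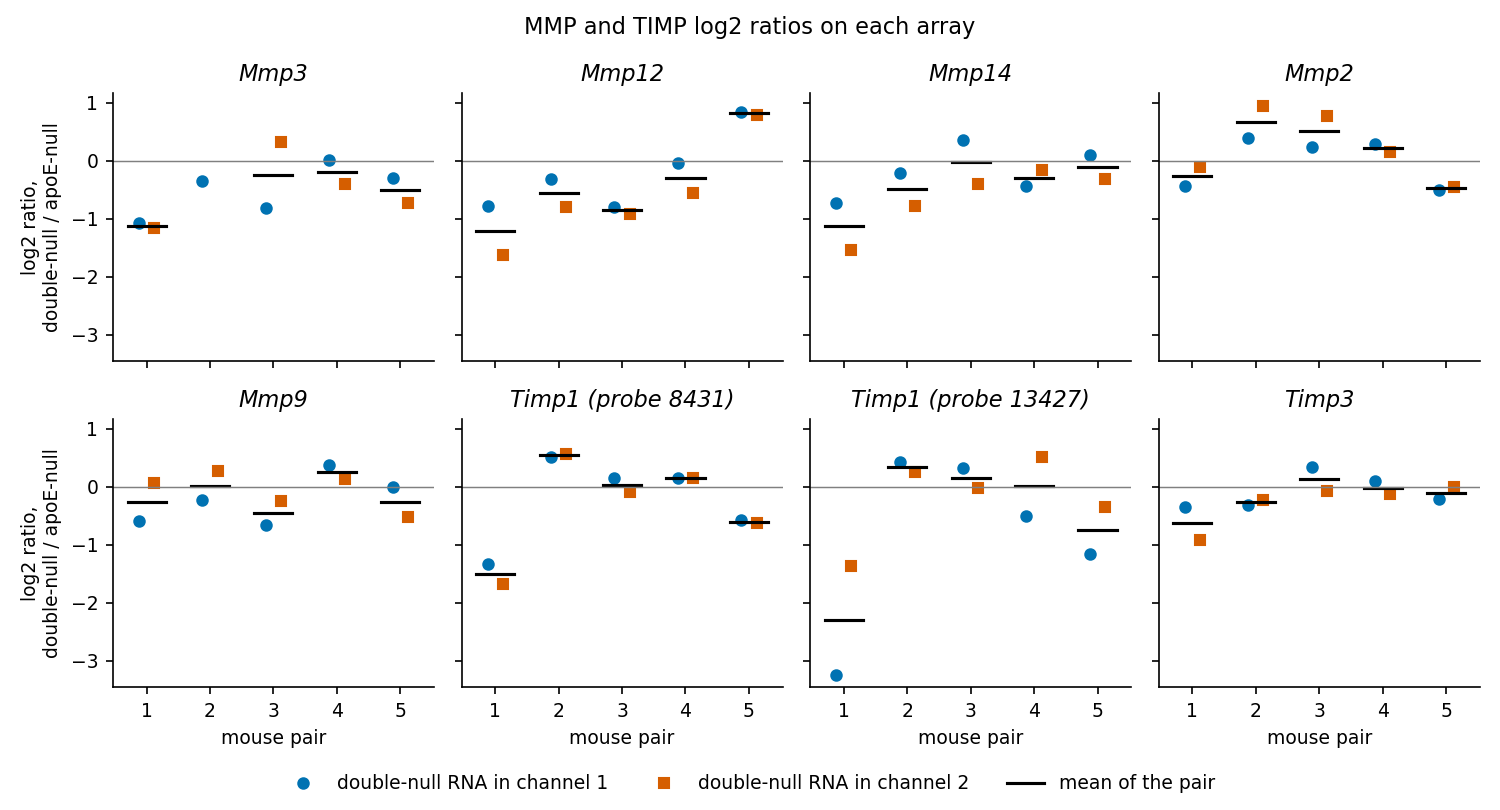
Log2 ratio of double-null over apoE-null (vertical axis) on each array for the 8 tested probes, by mouse pair (horizontal axis). Circles are arrays with double-null RNA in channel 1, squares arrays with it in channel 2, and bars the pair means. Mmp12 is above 0 on both arrays of pair 5, and both Timp1 probes are lowest in pair 1.

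Timp1, a secreted inhibitor induced by inflammatory signals, had the widest range of any member. Probe 8431 read -1.33, 0.51, 0.15, 0.15 and -0.58 in pairs 1 to 5 with double-null RNA in channel 1. It read -1.67, 0.56, -0.09, 0.16 and -0.62 with it in channel 2. Pairs 1 and 5 were below 0 in both orientations, and every male pair had a mean above 0. Probe 13427 read -3.25, 0.42, 0.33, -0.50 and -1.16 in pairs 1 to 5 with double-null RNA in channel 1. It read -1.36, 0.25, -0.03, 0.52 and -0.35 with it in channel 2. The probes had the same sign on 9 of 10 arrays and put the pairs in nearly the same order.

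The mean of Timp1 was -0.28 ± 0.80 by probe 8431 (SD, n = 5 pairs, limma adjusted p = 0.709). By probe 13427 it was -0.51 ± 1.08 (SD, n = 5 pairs, limma adjusted p = 0.623). The SD of probe 13427 exceeded that of 98.3% of tested probes. Without pair 1 the means were 0.03 and -0.06, so the sign of probe 8431 turned with that pair.

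Timp3, an inhibitor that binds to the matrix, had pair values of -0.63, -0.27, 0.13, -0.02 and -0.10 in pairs 1 to 5. Pair 1 was the lowest and pair 2 came next, with both of its arrays below 0. The remaining pairs lay closer to 0. The mean was -0.18 ± 0.29 (SD, n = 5 pairs, 95% interval -0.49 to 0.13, limma adjusted p = 0.653), and it was -0.06 without pair 1. Timp2, which also takes part in the opening of pro-Mmp2 by Mmp14, had 1 value in all, 0.33 on the channel 2 array of pair 4, and was not tested.

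The dye orientations gave unequal means for some members. Mmp14 had a mean of -0.18 with the double-null sample in channel 1 and -0.64 with it in channel 2. In the same order, Mmp12 had -0.22 and -0.62, and Timp1 probe 13427 had -0.83 and -0.19. None of the 8 probes passed the test of a dye effect (limma, smallest adjusted p = 0.172), at which 4.75% of all tested probes were called. At an unadjusted p under 0.05 these 3 of the 8 passed, as did 21.4% of all tested probes.

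The 8 tested probes were also set against each other within mouse pairs. All 28 pairs of probes were taken, including those of enzymes alone or of inhibitors alone. The Mmp2 ratio was above the Timp1 ratio in 5 of 5 pairs by either Timp1 probe, by 0.41 ± 0.49 for probe 8431 and 0.64 ± 0.78 for probe 13427 (SD, n = 5 pairs). The Mmp14 ratio was below the Timp3 ratio in 5 of 5 pairs, by -0.23 ± 0.18 (SD, n = 5 pairs). Each of these 3 had an exact sign-flip permutation p of 0.062 (two-sided), the smallest possible, and 0.5 after Benjamini-Hochberg adjustment over the 28.

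The members' ratios varied with the mouse pair. The median of the tested members was -1.12 in pair 1, where 8 of 8 probes were below 0, and -0.37 in pair 5, where 7 of 8 were. It lay between -0.00 and 0.02 in the male pairs, where 3 of 7, 4 of 8 and 4 of 8 were below 0. Over all tested probes the share below 0 was 58.6% in pair 1 and 56.4% in pair 5, and between 50.7% and 55.4% in the male pairs. Pair 1 also had the widest spread of all pairs, with an SD of 0.64 over all tested probes, against 0.35 to 0.46 in the others.

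The all-female pair was set against the 3 all-male pairs, leaving out pair 5, whose mice were of different sex. With 1 female pair, the SE and p of this contrast take their spread from the male pairs alone. The values thus describe pair 1 and cannot tell whether the sexes differ. Timp1 probe 13427 read -2.30 in pair 1 and 0.17 ± 0.16 in the male pairs (SD, n = 3 pairs), a difference of -2.47 (SE 0.32, limma adjusted p = 0.0124). Of 4553 probes, 0.198% were past the threshold. Probe 8431 differed by -1.74 (SE 0.33), at -1.50 against 0.24 ± 0.27 (SD, n = 3 pairs), and missed the threshold (limma adjusted p = 0.0595). In pair 1, 0.107% of tested probes lay below probe 13427 and 0.853% below probe 8431. Mmp14 differed by -0.86 (SE 0.33, limma adjusted p = 0.253), Mmp3 by -0.90 (SE 0.34, limma adjusted p = 0.259) and Mmp2 by -0.73 (SE 0.33, limma adjusted p = 0.319), with 2 male pairs measured for Mmp3, and none of these 3 passed. At an unadjusted p under 0.05, 5 of the 8 probes were lower in the female pair, against 7.29% of all probes tested, and 15.6% passed in either direction.

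Pair 1, assumed here to vary like the male pairs, had the widest spread over all probes. With double-null RNA in channel 2 alone, the difference of probe 13427 was -1.61 and no longer past the threshold (limma adjusted p = 0.215), nor was it with arrays scaled to a common spread (-1.89, limma adjusted p = 0.0863). Probe 8431 had an adjusted p in limma of 0.0573 without pair 2 (-1.59), 0.0143 without pair 3 (-1.85) and 0.00109 without pair 4 (-1.79). The probes past the threshold over the whole table then numbered 27 of 4323, 75 of 3882 and 245 of 3898, against 9 of 4553 with every male pair. Cell type markers in pair 1 had a median of 2.05 over adipocyte markers and -1.18 over macrophage markers. Their part in the Timp1 difference was not tested.

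Timp1, Mmp2 and Mmp3 also split the pairs by the sex of the apoE-null mouse, a grouping made after their values were seen. By Timp1 probe 8431, the pairs with a female apoE-null mouse had a mean of -1.05 and those with a male one 0.24, and by probe 13427 the means were -1.53 and 0.17. For Mmp2 the means were -0.37 and 0.47, and for Mmp3 -0.81 and -0.22. The 2 groups of pairs did not overlap for these 4 probes, 2 of which are of Timp1. Mmp3 was compared over 4 pairs, and no share over all probes with 4 pair values was taken. Among probes with 5 pair values, as all but Mmp3 had, 26.5% did not overlap and 16.3% had pairs 1 and 5 below the others. Mmp2 and both Timp1 probes were below 0 in pairs 1 and 5 and above 0 in the male pairs, as were 4.51% of such probes. In limma, the difference was -1.29 (SE 0.32, adjusted p = 0.381) and -1.69 (SE 0.43, adjusted p = 0.381) for the Timp1 probes and -0.84 (SE 0.24, adjusted p = 0.424) for Mmp2. For Mmp3 it was -0.59 (SE 0.29, limma adjusted p = 0.674). None passed, and the test called 0.106% of 4711 probes, with 8.45% at an unadjusted p under 0.05.

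**Figure D3:**
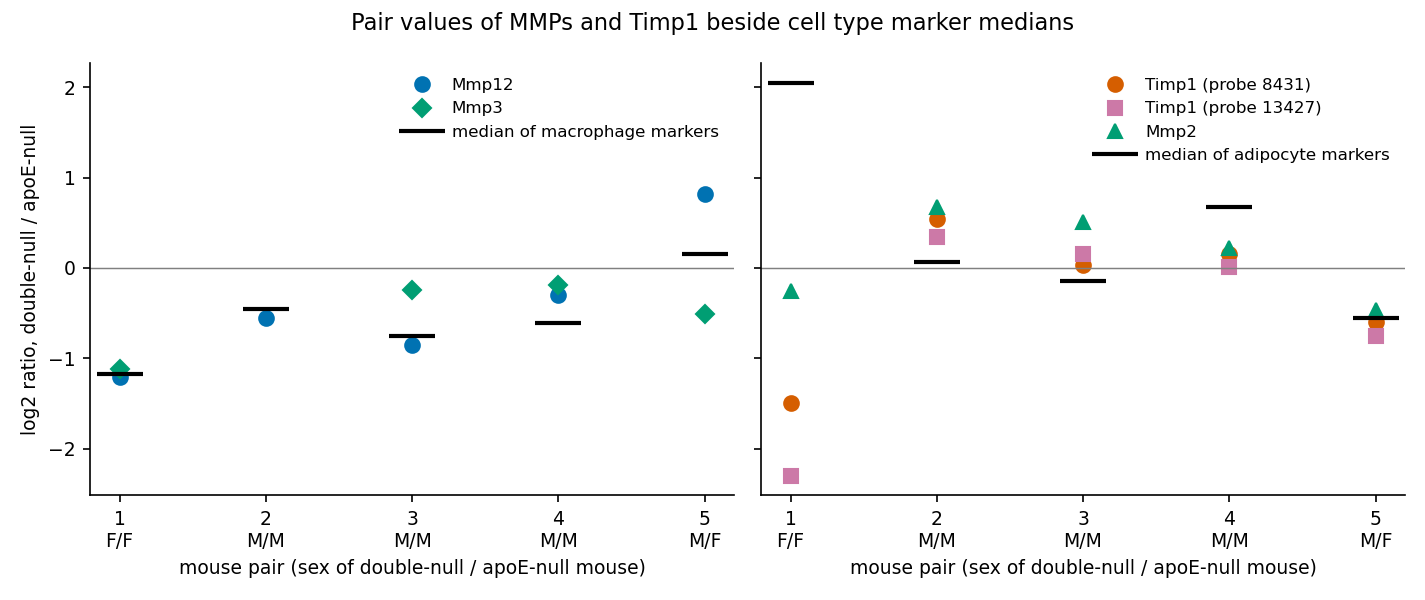
Log2 ratio of double-null over apoE-null by mouse pair, with the sexes of the double-null and apoE-null mouse under each pair number (F female, M male). Left, Mmp12 and Mmp3 with the median of the macrophage markers (bars); right, the Timp1 probes and Mmp2 with the median of the adipocyte markers (bars). Mmp12 and the macrophage median are below 0 in pairs 1 to 4 and above 0 in pair 5, while Timp1 and Mmp2 are below 0 in pairs 1 and 5.

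The median of the macrophage markers had the sign of Mmp12 in every pair, while single markers did not always. It was -1.18, -0.45, -0.75, -0.61 and 0.15 in pairs 1 to 5, beside Mmp12 at -1.21, -0.56, -0.85, -0.30 and 0.82. Below 0 were 12 of 12 macrophage probes in pair 1, 9 of 12 in pair 2, 11 of 11 in pairs 3 and 4, and 3 of 10 in pair 5. Over all tested probes the share below 0 lay between 50.7% and 58.6% by pair. The complement gene C1qc, at 0.06 in pair 2 and -0.27 in pair 5, had the opposite sign to Mmp12 in both. All 12 tested macrophage probes had a mean below 0, against 58.7% of all tested probes. Their median was -0.55, or -0.37 without pair 1 and -0.70 without pair 5. None of the 12 passed the limma test (smallest adjusted p = 0.157, for the lysozyme gene Lyz2). At an unadjusted p under 0.05 in limma there were 9 of 12, against 10.0% of all tested probes. Cd68, a lysosomal protein of macrophages, was the second closest of 3297 probes to Mmp12, with a Pearson's r of 0.97 over 10 arrays after each orientation's mean was removed. Its pair values were -1.05, -0.73, -0.67, -0.15 and 0.59. Dnmt3a, a DNA methyltransferase, was the closest (r = 0.98) and the kinesin gene Kif17 came next (r = 0.96). These arrays come from 5 pairs and share RNA within a pair, so the values of r describe likeness only. The part of the macrophage markers in the Mmp12 ratio was not tested.

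The other members were closest to other genes. The 3 probes most like Mmp2 were those of Zfp36, an RNA-binding protein that shortens the life of inflammatory transcripts (r = 0.94), Ubtf, a factor for ribosomal RNA synthesis (r = 0.92), and Cdkn1a, a cell cycle inhibitor (r = 0.92). Cdkn1a had pair values of -1.42, 1.16, 1.23, 0.80 and -2.20, with the signs of Mmp2 in every pair. Timp1 probe 8431 was closest to Tmem176a, a membrane protein (r = 0.98), which was also among the 3 closest to probe 13427 (r = 0.94). Procr, the endothelial protein C receptor (r = 0.98), and Cytip, a leukocyte protein (r = 0.97), came next for probe 8431, and Smarca5 (r = 0.96) and Atl3 (r = 0.95) led for probe 13427. Without pair 1 the last 2 values dropped to 0.76 and 0.74.

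Mmp14 was most like Casc3 (r = 0.97), Prkcb, a protein kinase C (r = 0.96), and Calcrl, an adrenomedullin receptor subunit (r = 0.94). Timp3 was most like Abi1 (r = 0.98), the growth factor Pdgfa (r = 0.95) and Ace, the angiotensin-converting enzyme (r = 0.94). Mmp3 was most like Tulp4 (r = 0.92), the survival factor Mcl1 (r = 0.91) and Cand1 (r = 0.91), over 9 arrays. Without pair 1 these values of r fell to between 0.82 and 0.92 for Mmp14, 0.85 and 0.95 for Timp3, and 0.81 and 0.88 for Mmp3. Mmp9 had no close match, with r = 0.79 for each of Brap, Abhd5 and Sptlc1.

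Genes that act with the MMPs gave no call either. Beside the counts of these lists, 58.7% of all tested probes had a mean below 0 and 10.0% an unadjusted p under 0.05 in limma. Of the other MMPs, Timp4 and cofactors, 3 of 20 genes were tested and 0 of 3 passed in limma, with 1 at an unadjusted p under 0.05. Bsg, also called EMMPRIN, which induces MMPs in neighbouring cells, was above 0 in 5 of 5 pairs with a mean of 0.34 ± 0.25 (SD, n = 5 pairs, limma adjusted p = 0.426). Reck, a membrane-anchored MMP inhibitor, had -0.24 ± 0.31 (SD, n = 3 pairs) and Mmp23 0.05 ± 0.13 (SD, n = 4 pairs). Of the ADAM and ADAMTS proteases, 0 of 6 tested probes passed in limma, 1 had an unadjusted p under 0.05 and 4 had a mean below 0. Adam8, a membrane protease of leukocytes, had the lowest, -0.88 ± 0.96 (SD, n = 5 pairs, limma adjusted p = 0.417), with -2.53 in pair 1 and between -0.89 and -0.15 in the others. Adam15 had -0.42 ± 0.54 (SD, n = 3 pairs). Adam9 had -0.28 ± 0.33 and Adam17, which sheds tumour necrosis factor, -0.19 ± 0.23 (SD, n = 5 pairs).

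Plasminogen activators start the plasmin cascade that opens pro-MMPs. The list of activators and inhibitors had 3 means below 0 and 3 above, 0 of 6 tested probes called in limma, 1 with an unadjusted p under 0.05, and a median of -0.03. Plat, the tissue activator, had -0.15 ± 0.19 and Plaur, the urokinase receptor, -0.11 ± 0.31 (SD, n = 5 pairs). S100a10, which binds plasminogen at the cell surface, had 0.52 ± 0.54 (SD, n = 4 pairs, limma adjusted p = 0.474) and was above 0 in 4 of 4 pairs. The endocytic receptor Lrp1, which clears MMPs, had -0.43 ± 0.39 (SD, n = 3 pairs).

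Among substrates of the MMPs, 9 of 12 tested probes had a mean below 0, with a median of -0.22, and 0 of 12 passed in limma, none with an unadjusted p under 0.05. The fibrillar collagen Col1a1 had -0.34 ± 0.43, Col5a2 -0.34 ± 0.39, and the proteoglycans Bgn and Vcan -0.41 ± 0.56 and -0.32 ± 0.53 (SD, n = 5 pairs). Their list median was -0.72 in pair 1, -0.10 in pair 2, 0.28 in pair 3, -0.00 in pair 4 and -0.55 in pair 5. Pairs 1 and 5 were thus lowest for the substrates as they were for Timp1. Of AP-1 subunits and inducers, all 6 tested probes had a mean below 0, with a median of -0.11. Of these, 0 of 6 passed in limma, 1 with an unadjusted p under 0.05. Over all tested probes, 58.7% had a mean below 0 and 10.0% an unadjusted p under 0.05. Fos, an AP-1 subunit, had -0.55 ± 0.47 (SD, n = 4 pairs, limma adjusted p = 0.415) by 1 probe and -0.10 ± 0.13 (SD, n = 5 pairs) by another. Jun had -0.21 ± 0.37 and Junb -0.12 ± 0.27 (SD, n = 5 pairs).

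Markers of other cells of the vessel also varied over the pairs, and none of these lists held a called probe. Smooth muscle markers had a median of -0.14, with -0.54, -0.30, 0.32, -0.15 and -0.26 in pairs 1 to 5. Fibroblast markers had a median of -0.22, with -0.38, -0.23, -0.08, 0.04 and -0.37. Endothelial markers had a median of -0.05, from -0.36 in pair 1 to 0.25 in pair 4. Adipocyte markers had a median of 0.47, with 2.05, 0.07, -0.15, 0.67 and -0.56 in pairs 1 to 5, and of 0.05 without pair 1. Without that pair the medians were also closer to 0 for smooth muscle markers, at -0.06, fibroblast markers, at -0.12, the MMP substrates, at -0.10, the ADAM and ADAMTS proteases, at -0.13, and AP-1 subunits and inducers, at -0.03. The endothelial median turned to 0.08. Neutrophil and T cell markers had medians of 0.21 and 0.07 over 4 and 1 tested probes. Erythroid markers had a median of 0.82 over 2 tested probes. It was above 0 in every pair, at 1.29, 0.69, 0.50, 0.30 and 1.33 in pairs 1 to 5. Both erythroid probes had an unadjusted p under 0.05 in limma (smallest adjusted p = 0.114), against 10.0% of all tested probes. Whether any of these shifts bears on an MMP or TIMP ratio was not tested.

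**Figure D4:**
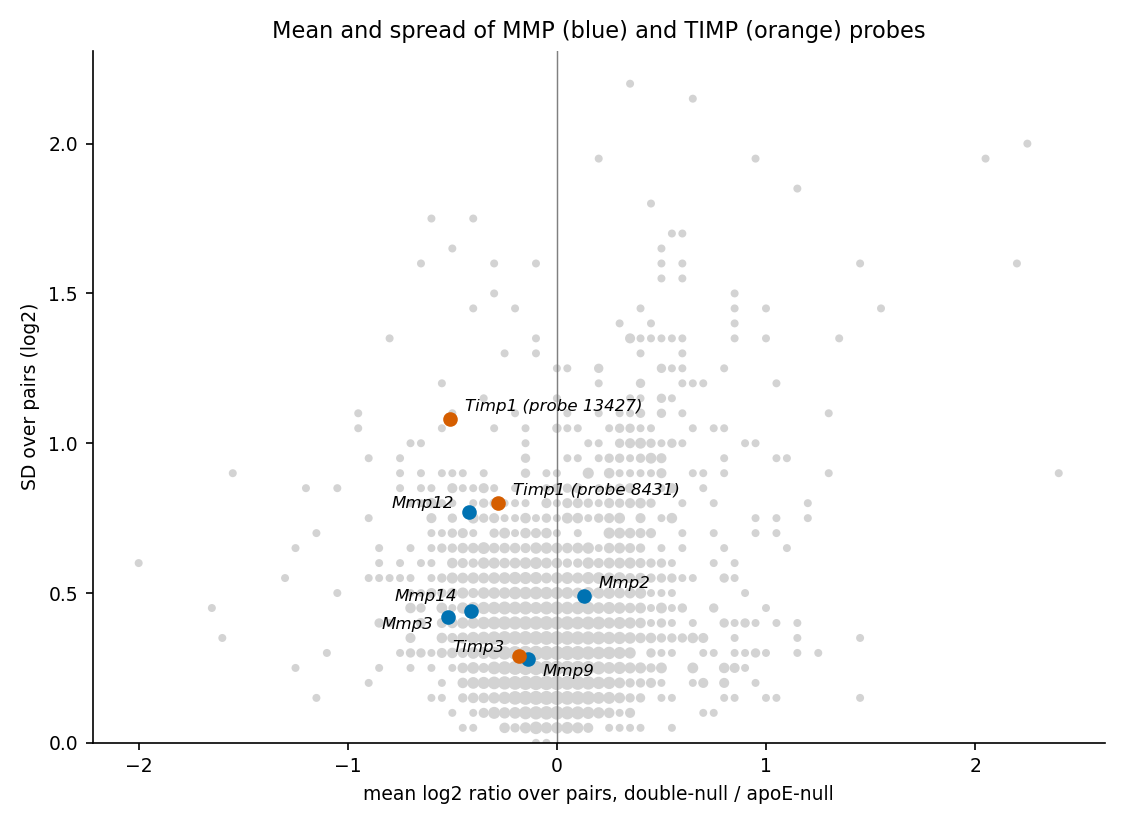
Mean log2 ratio of double-null over apoE-null (horizontal axis) and SD over mouse pairs (vertical axis) for the MMP probes (blue), the TIMP probes (orange) and all 4866 tested probes in bins of 0.05 (grey, larger points hold more probes). Mmp12 and the Timp1 probes lie among the probes with the widest spread, while Mmp9 and Timp3 lie near the median SD of 0.30.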

How the data were processed

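Amplified RNA was hybridised in 2 colours and read with GenePix tools, and GeneSpring served for the authors' analysis, per the labels. The authors deposited log2 values, which the titles describe as apoE-null over double-null. The lowest value, -6.64, is the log2 of 0.01, which fixed the base. No source used here states the authors' normalization or why cells are blank. Deposited array medians were within 0.1 of 0 and were kept. Between 49.1% and 67.0% of an array's cells were blank. No scanner intensities were used, so how far a probe stood above background is not known. Precision is limited by how many mouse pairs there are.

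Signs were turned to double-null over apoE-null. Both arrays had to hold a value for a pair to count, and a probe needed 3 such pairs. Probes were tested with limma 3.58.1 (R 4.3.3; lmFit and eBayes), with two-sided p-values and Benjamini-Hochberg adjustment over all tested probes at 0.05. The dye test used the difference between the 2 orientations of a pair. The fit was tested on simulated data. Mice are numbered separately in the labels, and the spread behind each p is that of mouse pairs. Members follow the platform annotation; other symbols were updated by Entrez identifier (12009 of 12143 single symbols matched, GRCm38.p6). Promoters are RefSeq's.

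Members and lists were chosen with earlier results of these data known. Genes named are the 9 members, Myd88, up to 4 genes of each list with the smallest p, and the 3 probes most like each member. Cd68 is such a probe, and Mmp8 and Mmp13 are named for their blanks. Alternatives were leaving out pairs, array-level fits with the pair as a block, single orientations, filters, centring, scaling, robust eBayes, averaged probes, male pairs alone and removed floor values. The contrast by sex of the apoE-null mouse and the alternatives of the female contrast were added after the data were seen.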

Additional observations from a re-analysis of the deposited data

Results flagged for a closer look

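Timp1 probe 13427 differed by -2.47 on the log2 scale between pair 1, both of whose mice were female, and the mean of the 3 all-male pairs (limma adjusted p = 0.0124). That p takes its spread from the male pairs alone, so it cannot tell whether the sexes differ. It was 0.215 on channel 2 arrays and 0.0863 with scaled arrays, and the other Timp1 probe did not pass. For Timp3, the pair 1 array was far from the rest among those with double-null RNA in channel 2, at -0.92, with 5 values compared. The median of the AP-1 subunits and inducers in pair 1, -0.35, was far from those of pairs 2 to 5. In 38 groups of 4 or 5 values these were 2 flags, and chance flags about 1 in 20.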

How the results depend on the processing

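No member probe was called under any of the 18 alternatives for the genotype, and 139 of 143 alternative values of the members' ratios kept their sign. Those that turned were Timp1 probe 8431 at 0.03 without pair 1 and 0.24 in the male pairs alone, Timp1 probe 13427 at 0.17 in the male pairs alone, and Mmp2 at -0.002 without pair 2. Leaving out pairs gave -0.48 to 0.03 for Timp1 probe 8431, -0.72 to -0.06 for probe 13427, -0.002 to 0.29 for Mmp2, -0.62 to -0.32 for Mmp3, -0.24 to -0.06 for Mmp9, -0.73 to -0.22 for Mmp12, -0.51 to -0.23 for Mmp14 and -0.26 to -0.06 for Timp3. The array-level fit with the pair as a replicate block called 39 probes of the whole table, against 38, and 0 members. With a dye term added it called 83, arrays with double-null RNA in channel 1 alone gave 59, those in channel 2 alone 119, and the male pairs alone 59. Leaving out a pair gave 0 (without pair 4, with 325 at an unadjusted p under 0.05 in limma) to 25. Probes with a dye effect numbered 231, and 110 to 222 when a pair was left out; the dye effect of Mmp3, 0.02, then ranged from -0.16 (without pair 3) to 0.1. The female contrast called 9 probes, 27 to 245 when a male pair was left out, 2 on channel 2 arrays and 15 with centred arrays. On channel 2 arrays Mmp9 turned to 0.02 and Timp1 probe 13427 stood at -1.61, and it stood at -1.89 with scaled arrays. Timp1 probe 8431 ranged from -1.85 to -1.59 when a male pair was left out. The causes were not tested.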
